A study of Mus musculus with 13 samples.

Results

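Enteroendocrine cells are the hormone-secreting cells of the gut lining. With earlier results of these data known, 10 of the 32285 genes counted in this series were chosen by name to describe them. They are the peptide hormone genes Gcg, Pyy, Insl5, Cck, Sst and Sct, the serotonin synthesis gene Tph1, the secretory granule genes Chga and Chgb, and the transcription factor gene Neurod1. Each was followed in droplet-based single-cell RNA sequencing (scRNA-seq) libraries of mouse colon, in which a unique molecular identifier (UMI) marks each captured transcript. The 13 libraries came from 3 C57BL/6J mice that all carried ApcMin/+; p16cis/cis and all received a supplemented diet, so genotype and diet were the same in every sample compared. ApcMin is a truncating allele of a Wnt pathway tumor suppressor, p16cis is the study's p16 epimutation allele, and the diet added methyl donors and their cofactors. There were 3 libraries of adjacent mucosa, 1 from each mouse, and 10 libraries of colon tumors, with 4 from mouse A (24 weeks of age), 2 from mouse B (23 weeks) and 4 from mouse C (20 weeks). Mucosa replicates 1, 2 and 3 came from mice C, A and B, tumors 1 to 4 from mouse C, tumors 5 to 8 from mouse A, and tumors 9 and 10 from mouse B.

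Enteroendocrine cells arise from crypt progenitors through a short pulse of Neurog3, after which Neurod1 and other factors complete their differentiation. In the colon the L cells make proglucagon (Gcg, the precursor of GLP-1 and GLP-2), peptide YY (Pyy), which slows gut transit and appetite, and insulin-like peptide 5 (Insl5). D cells make somatostatin (Sst), which restrains other endocrine cells, and enterochromaffin cells make serotonin through tryptophan hydroxylase 1 (Tph1). Cholecystokinin (Cck) and secretin (Sct) are best known from the small intestine, where they act on gallbladder and pancreas. Chromogranins A and B (Chga, Chgb) pack hormones and amines into dense-core granules.

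The tumor libraries held 57221300 to 93157039 UMIs in 7789 to 11862 barcodes, and the mucosa libraries 84883382 to 116133079 UMIs in 6537 to 15049 barcodes. Filters and removal of 10397 likely doublets left 108495 cells, of which 14692 of 22542 were epithelial in mucosa and 17307 of 85953 in tumors. Any pair of libraries shared at most 61 barcodes (0.561% of the smaller library). The sex given in the labels went against the RNA in 7 of the 13 libraries, since all 13 held transcripts of Y-linked genes (104 to 126 UMIs per 1000000, CPM) and almost no Xist (0.0236 to 0.129 CPM), and in 2 of the 3 mice the labels themselves were mixed. Sex entered no comparison, and the main results are given below with and without those libraries. Mucosa was dissociated with EDTA and TrypLE and tumors with an enzymatic tumor kit, so tissue and dissociation cannot be told apart.

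In the mm10 (GRCm38) annotation all 10 are protein-coding genes. Those on the minus strand are Gcg at chr2:62474530-62483650, Sst at chr16:23889573-23890958, Pyy at chr11:102106676-102107832, Cck at chr9:121489824-121495694, Insl5 at chr4:103017872-103026842, Tph1 at chr7:46644641-46672537, Sct at chr7:141278330-141279133 and Neurod1 at chr2:79452521-79456751. Those on the plus strand are Chga at chr12:102554969-102565028 and Chgb at chr2:132781278-132795079. These are whole gene bodies, exons and introns together, and the 3' libraries give UMIs per gene and not per exon or intron.

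The 120 bases before the RefSeq start of 5 of the genes are shown here, read 5′ to 3′ on the gene's strand from the GRCm38.p6 build. The Tph1 window is the first of 2. Capitals mark TGACG, the core of the element bound by CREB and related factors, and TATAAA, the TATA box, on either strand.
Gcg, chr2:62483654-62483773: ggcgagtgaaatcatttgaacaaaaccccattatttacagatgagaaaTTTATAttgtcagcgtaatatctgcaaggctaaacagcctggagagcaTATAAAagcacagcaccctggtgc
Cck, chr9:121495695-121495814: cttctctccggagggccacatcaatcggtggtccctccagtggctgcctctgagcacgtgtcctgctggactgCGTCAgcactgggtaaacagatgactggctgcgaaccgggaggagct
Chga, chr12:102554821-102554940: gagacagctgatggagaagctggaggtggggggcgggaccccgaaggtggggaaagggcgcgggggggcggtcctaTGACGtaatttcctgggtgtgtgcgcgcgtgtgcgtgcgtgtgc
Tph1, chr7:46672538-46672657: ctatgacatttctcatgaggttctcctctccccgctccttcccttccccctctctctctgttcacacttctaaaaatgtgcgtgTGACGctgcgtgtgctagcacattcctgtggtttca
Sct, chr7:141279134-141279253: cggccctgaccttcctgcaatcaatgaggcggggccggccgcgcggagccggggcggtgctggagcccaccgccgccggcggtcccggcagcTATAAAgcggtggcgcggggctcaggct

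All 10 genes matched the RefSeq table, with 13 windows in all. TGACG stood in 6 of the 13 windows, those of 5 genes (Sst, Cck, Chga, Chgb and Tph1), against 11.7% of the 32851 windows of all genes. TATAAA stood in 4 of the 13 windows, those of 3 genes (Gcg, Insl5 and Sct), against 6.34% of all windows. The windows of Pyy and Neurod1 held neither, while each window shown above held a match. The full TGACGTCA, which contains TGACG on both strands, was found in 2 of the 13 windows, of Sst and Chgb, and in 1.24% of all windows. These are matches of letters and say nothing of binding.

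The cells that hold these transcripts were clustered and named without using them, although the doublet score before it did not leave the 10 genes out. With the 10 genes kept out of the clustering, 1 cluster of 260 cells (242 in mucosa, 18 in tumors) was raised in all 16 of 16 enteroendocrine marker genes outside the chosen 10, among them the prohormone convertase Pcsk1 (a UMI in 57.3% of its cells), its inhibitor Pcsk1n (69.2%), the transcription factor Insm1 (73.1%) and Fev (42.7%). These cells are called enteroendocrine-like. In mucosa they held 90.8% to 99.4% of the UMIs of 9 of the 10 genes, and 60.1% of those of Sct.

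The share of enteroendocrine-like cells among epithelial cells was 1.31%, 1.65% and 1.80% in mucosa replicates 1, 2 and 3 (1.59% ± 0.253, SD, n = 3). In the 10 tumors it ran from 0.0450% through a median of 0.0714% to 0.249% (0.110% ± 0.0790, SD, n = 10). Every tumor lay below the mucosa of its own mouse, and the groups did not overlap. Tumors were lower by 1.47 percentage points (mean over mice), with p = 0.0133 in an exact two-sided permutation test within mice, the smallest p that its 75 assignments allow. With a gate of at least 3 marker genes per cell in place of the cluster, the tumor shares rose to 0.118% to 0.623%, beside a mucosa mean of 1.52%, and tumors stayed lower, at -1.15 points. The cluster held the same 260 cells at a finer resolution. Among the 6 libraries whose sex label fits the RNA, the mucosa stood at 1.65% and the 5 tumors between 0.0504% and 0.141%.

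**Figure D1:**
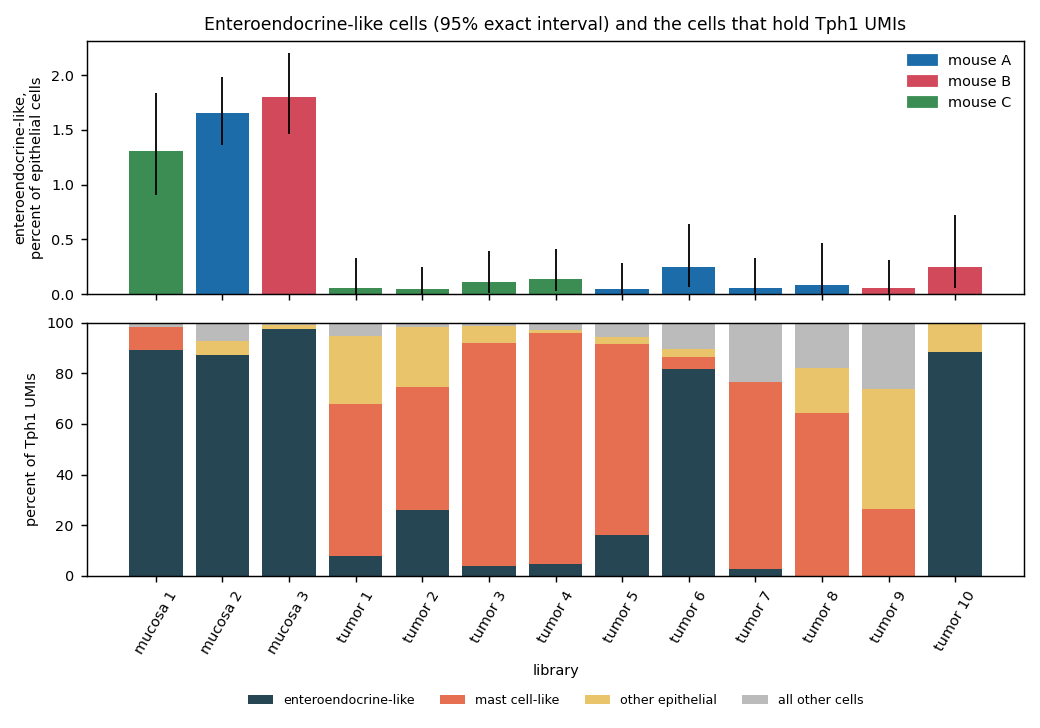
Top, enteroendocrine-like cells as a percent of epithelial cells in each library, with 95% exact binomial intervals that cover counting error only and colors by mouse. Bottom, the percent of each library's Tph1 UMIs held by each cell class. The 3 mucosa bars stand at 1.31% to 1.80% and no tumor exceeds 0.249%, while mast cell-like cells hold most Tph1 UMIs in 6 of the 10 tumors.

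When all cells of a library were summed, 9 of the 10 genes were called lower in tumors and Pyy was the exception. Among all 17437 genes tested with edgeR, 70.3% were called (adjusted p under 0.05), 34.0% lower and 36.3% higher, so the count of 9 is to be read against a background in which most genes differ. The 10 genes were also chosen with earlier results of these data known, so the count is a description. The tumor libraries lay wholly below the mucosa libraries for the same 9 genes, against 26.3% of all genes (26.7% lay wholly above). Only 7 of the 10 would have passed the filter on low counts from the tumors alone, so the other 3 (Gcg, Sst and Insl5) entered the test through the mucosa and had to differ. Their fitted differences are given as descriptions, with no test, and the count of 9 is no support for them. Sums cannot tell fewer cells of a type from less RNA per cell, and the cells themselves are described further below.

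**Figure D2:**
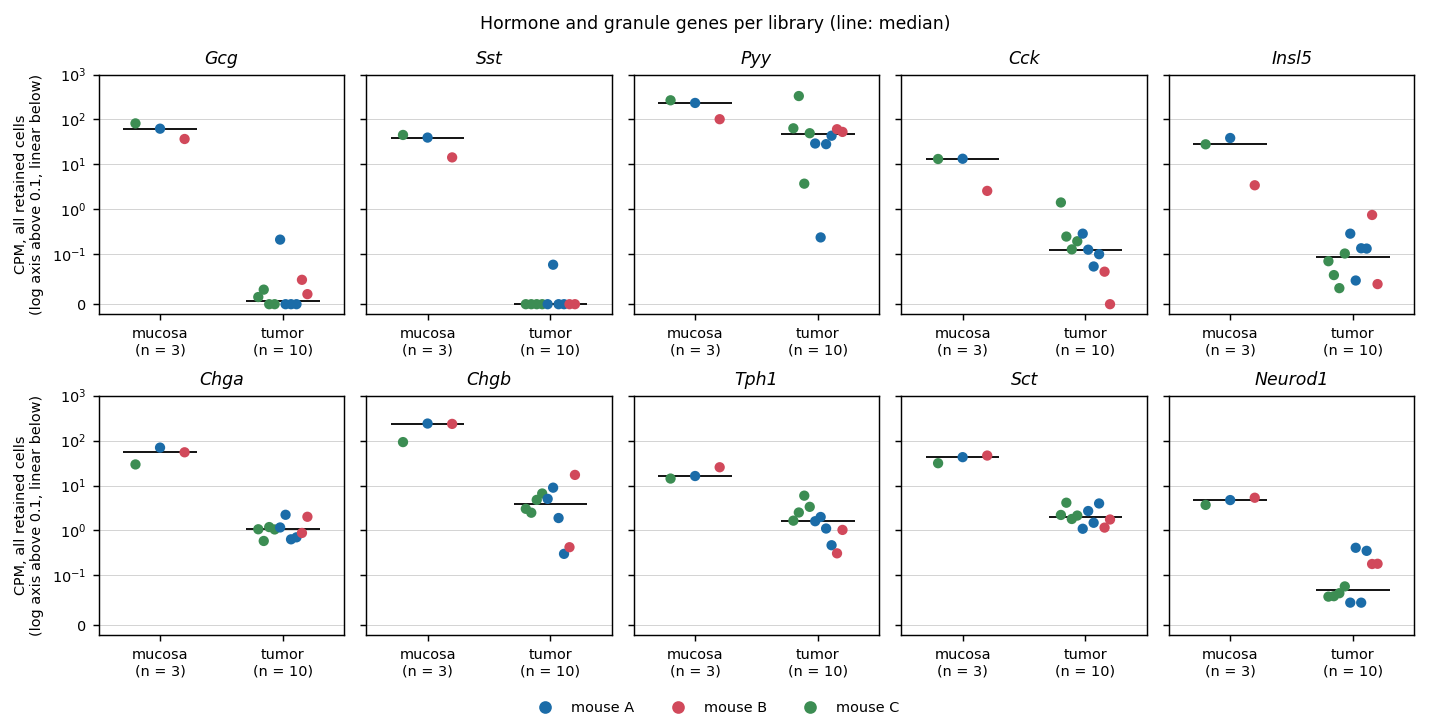
Each point is 1 library, colored by mouse, and the vertical axis gives the gene's UMIs per 1000000 UMIs of all retained cells, logarithmic above 0.1 and linear below. Black lines are medians of the 3 mucosa and 10 tumor libraries. The groups are apart for every gene but Pyy, whose tumors range from 0.237 to 332 CPM.

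Gcg, the proglucagon gene of L cells, had 81.7, 62.4 and 36.8 CPM in mucosa replicates 1, 2 and 3. In tumors it had 0 CPM in 5 libraries, a median of 0.00718 and at most 0.212 CPM, in tumor 5. In UMIs this was 5724, 4907 and 3214 in the mucosa libraries against 21 in all 10 tumors together. The fitted log2 difference, a description only, was -10.75 ± 0.53 (SE), and without tumor 5 it was -12.0.

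That difference rests in size on how doublets were treated, by a score that did not leave out the chosen genes. A pair of enteroendocrine-like barcodes from tumors 5 and 7 were removed as doublets, and they held 727 of the 750 Gcg UMIs (96.9%) and 1272 of the 1385 Insl5 UMIs (91.8%) in tumor cells that passed the other filters. The barcode of tumor 5 had 552 Gcg, 7213 Pyy, 790 Insl5 and 118 Cck UMIs, and that of tumor 7 had 175, 3562, 482 and 77. Both had UMIs of all 8 epithelial markers, and 0 and 1 UMI of the immune markers. With doublets kept, the fitted Gcg difference was -5.88, and over all deposited barcodes its UMIs per 1000000 were 53.1 times as high in mucosa as in tumors, against 1798 times over retained cells. In mucosa 47 of 289 enteroendocrine-like barcodes (16.3%) were removed in this way, and in tumors 2 of 20 (10.0%).

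Insl5, a relaxin-family peptide made by colonic L cells, had 28.0, 38.7 and 3.43 CPM in the mucosa replicates. The tumors ran from 0.0321 through a median of 0.0950 to 0.749 CPM, the highest being tumor 9. All tumors were below all mucosa libraries, with a fitted log2 difference of -7.09 ± 0.69 (SE), again a description. With doublets kept it was -3.47, without tumor 9 it was -7.78, and without mucosa replicate 2 it was -6.48.

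Cck, best known as the hormone of gallbladder contraction, had 13.2, 13.4 and 2.57 CPM in mucosa. In tumors it had 0 to 1.42 CPM with a median of 0.127, and tumor 1 was the highest. The log2 fold change was -5.11 ± 0.79 (SE; edgeR adjusted p = 6.2e-05), and -6.09 without tumor 1. With doublets kept it was -4.01 (edgeR adjusted p = 0.00052), and the pair of removed barcodes held 47.1% of the 414 tumor Cck UMIs. Mucosa replicate 3 was the lowest of the mucosa libraries for Gcg, Insl5 and Cck alike, and the same held for Sst and Pyy.

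Sst, the somatostatin gene of D cells, had 45.2, 39.5 and 14.3 CPM in mucosa and was at 0 in 9 of the 10 tumors. The remaining 5 UMIs, in tumor 6, all came from 1 neutrophil-like cell of 3073 UMIs, and no tumor epithelial cell held an Sst UMI. Against a floor of 3 UMIs over all tumor epithelium, the Sst share of epithelial UMIs would be 3267-fold lower in tumors. This covers the counting of UMIs only and is no bound, since the mucosa UMIs sat in few cells. The 17 Sst-positive enteroendocrine-like mucosa cells held a median of 381 Sst UMIs, so a single missed tumor cell would change the fold greatly. The fitted difference depends on the prior count and is not given.

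Tph1, whose enzyme catalyses the limiting step of serotonin synthesis outside the brain, had 14.3, 16.3 and 25.5 CPM in mucosa. The tumors ran from 0.309 through a median of 1.63 to 5.94 CPM. The groups did not overlap, with a log2 fold change of -3.22 ± 0.54 (SE; edgeR adjusted p = 0.00013). Chga had 29.4, 69.7 and 54.8 CPM in mucosa against 0.583 to 2.23 CPM in tumors (median 1.06), and fell by 5.47 on the log2 scale (SE 0.34, edgeR adjusted p = 1.9e-08). Chgb had 92.5, 239 and 235 CPM in mucosa against 0.301 to 17.2 CPM in tumors (median 3.91), and fell by 5.22 (SE 0.74, edgeR adjusted p = 2.8e-05). Tumor 10 was the highest tumor for Chgb, and tumors 8 and 9 the lowest.

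Sct, the secretin gene, had 31.3, 42.7 and 46.4 CPM in mucosa and 1.09 to 4.14 CPM in tumors (median 1.97). Its log2 fold change was -4.13 ± 0.33 (SE; edgeR adjusted p = 1.8e-07). Neurod1, a basic helix-loop-helix factor downstream of Neurog3, had 3.70, 4.74 and 5.34 CPM in mucosa and 0.0453 to 0.411 CPM in tumors (median 0.0711). Its log2 fold change was -4.94 ± 0.53 (SE; edgeR adjusted p = 2.3e-06), and the groups did not overlap.

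Pyy, the second L-cell hormone, did not follow Gcg. It had 267, 233 and 101.3 CPM in the mucosa replicates and ran from 0.237 (tumor 6) through a median of 46.5 to 332 CPM (tumor 2) in tumors. The groups overlapped only through tumor 2, whose value was above every mucosa library, while the other 9 tumors were below all of them. The log2 fold change was -1.53 ± 1.04 (SE) and was not called by edgeR (adjusted p = 0.203). It was called lower without tumor 2 (-2.42, edgeR adjusted p = 0.0194), with DESeq2 (-2.27, adjusted p = 0.0240) and with the tumors of each mouse summed (-1.58, edgeR adjusted p = 0.0458).

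In the sums over epithelial cells alone, which leave out the immune clusters, 9 of the 10 genes were called lower as well. These sums still hold a subcluster of 390 cells (367 in tumors), led by S100a9 and Retnlg, with 7 epithelial and 8 immune markers. Of all 15447 genes tested there, edgeR called 64.1%, 30.2% lower and 33.9% higher. The epithelial groups did not overlap for 8 genes (12.6% of all genes were apart in that direction and 33.4% in the other), the exceptions being Pyy and Cck. Of the 10, 6 would have passed the filter from tumors alone. Gcg, Sst, Insl5 and Neurod1 entered through the mucosa, so their differences are descriptions and the count of 9 is no support for them. Scaled by library totals alone, the median change of all genes moved from 0.04 to 0.31 on the log2 scale and the lower share of called genes from 47.1% to 30.5%, while Cck, Chga, Chgb, Tph1 and Sct were still called lower.

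Gcg had 95.1, 66.0 and 40.1 epithelial CPM in mucosa and was at 0 in 9 tumors, with 0.133 CPM in tumor 5 (fitted log2 difference -12.14 ± 0.43, SE). Cck had 15.4, 14.2 and 2.83 epithelial CPM in mucosa, and tumor 1, with 3.76, was the only tumor above the lowest of them (log2 fold change -4.39 ± 0.81, SE, edgeR adjusted p = 0.00037, and -5.55 without tumor 1). The fitted difference of Insl5 was -7.80, and -2.78 with doublets kept. With doublets kept, Gcg was at -5.15 and Neurod1 at -3.81, while Cck at -3.31 (edgeR adjusted p = 0.0044), Chga at -3.92 and Tph1 at -3.09 were still called lower.

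Chga, Chgb, Tph1 and Sct fell in the epithelium, with log2 fold changes of -4.71, -4.42, -4.05 and -3.36, each called by edgeR, and the fitted difference of Neurod1 was -4.45. Epithelial Pyy had 311, 247 and 111 CPM in mucosa and 0.265 to 731 in tumors (median 107), a log2 fold change of -0.79 ± 1.10 (SE; edgeR adjusted p = 0.544). Within mouse B both tumors, at 155 and 117 CPM, were above their mucosa, and within mouse A all 4 tumors were below theirs. Without the 7 libraries of mismatched sex label, which leaves 1 mucosa library assumed to vary like the 5 tumors, Cck, Chga, Chgb, Tph1 and Sct were again called lower in both kinds of sums and Pyy was not called.

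Hormone-positive cells, defined by at least 10 UMIs of the gene, were counted from the same UMIs. Of 14692 mucosa epithelial cells 38 were Gcg-positive, 18 Sst-positive, 21 Insl5-positive, 34 Cck-positive, 94 Tph1-positive and 115 Sct-positive. Among 17307 tumor epithelial cells there were 0 for Gcg and Sst, 1 for Insl5, 4 for Cck, 10 for Tph1 and 11 for Sct. With doublets kept the tumor counts were 2 for Gcg, 0 for Sst, 3 for Insl5, 6 for Cck, 16 for Tph1 and 19 for Sct. A count of 0 of 17307 is a limit for cells with 10 UMIs, not for cells that express the gene. The share of positive cells lay lower in all tumors than in all mucosa libraries for 5 of the 7 hormone genes, against 3.26% of 6804 genes. With cells thinned to 3000 UMIs each, which left out 967 mucosa and 1935 tumor cells, it did so for 6. Gcg, Sst and Insl5 are among the 5 and had positive cells almost only in mucosa. They therefore had to lie lower, and the count is no support for them. Pyy went the other way in its mean, with 59 positive cells in mucosa (0.437% ± 0.141, SD, n = 3) and 405 in tumors (2.22% ± 1.97, SD, n = 10), and its groups overlapped.

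Within the mucosa, the hormones fell into sets of cells that shared transcripts. Of the 38 Gcg-positive cells (10, 18 and 10 in the 3 replicates), 94.7% were also Pyy-positive (exact 95% interval 82.3% to 99.4%), with 90% to 100% in the single libraries. Cck was positive in 78.9% of them, Insl5 in 52.6% and Sct in 19 cells. In turn 95.2% of the 21 Insl5-positive cells and 88.2% of the 34 Cck-positive cells held Gcg. At 30 UMIs the share of Gcg-positive cells with Cck was 40.6% (mean of libraries), so the Cck overlap depends on where the limit is set.

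The Tph1-positive cells formed a separate set. All 94 held at least 10 UMIs of Chga and of Chgb, and none held 10 UMIs of Gcg, Sst, Pyy, Cck or Insl5, which allows at most 3.85% for each (exact 95% interval). Sct was the hormone they shared, positive in 40.4% of them. Chromogranins were rarer in the L-cell hormone set, where 31.6% of Gcg-positive cells were Chga-positive and 21.1% Chgb-positive. These shares rested largely on mucosa replicate 1, with Chga in 6 of 10, 5 of 18 and 1 of 10 Gcg-positive cells and Chgb in 6, 2 and 0 of them in the 3 replicates. Without that replicate the mean Chgb share was 5.56%, against 23.7% with it and 42.5% at 3 UMIs. Enteroendocrine-like cells of mucosa replicates 1, 2 and 3 had median depths of 10709, 3953 and 5264 UMIs. The limit of 10 UMIs was the same in all, and the part of depth in these shares was not tested.

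The 18 Sst-positive cells shared Pyy in 12 cells (66.7%, exact 95% interval 41.0% to 86.7%), Gcg in 1 cell, and Insl5 and Tph1 in none. The Pyy share among them moved with the limit, from a mean of 68.4% over libraries to 83.3% at 3 UMIs and 35.0% at 30 UMIs. No cell was positive for both Gcg and Tph1 or both Sst and Tph1. Of the 215 cells positive for any of the 7 hormone genes, 122 were positive for 1 and 93 for more, and 161 were among the 242 enteroendocrine-like cells.

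By exact combination, Tph1 alone was found in 56 cells, Sct alone in 53 and Sct with Tph1 in 38. These counts take in all epithelial classes, and of the 115 Sct-positive epithelial cells 65 were enteroendocrine-like and 33 goblet-like. The full L-cell combination of Gcg, Pyy, Insl5, Cck and Sct was found in 10 cells, 5 of them in mucosa replicate 1. Pyy with Sst was also found in 10 cells, 7 of them in replicate 2. There were 81 enteroendocrine-like cells positive for none of the 7.

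**Figure D3:**
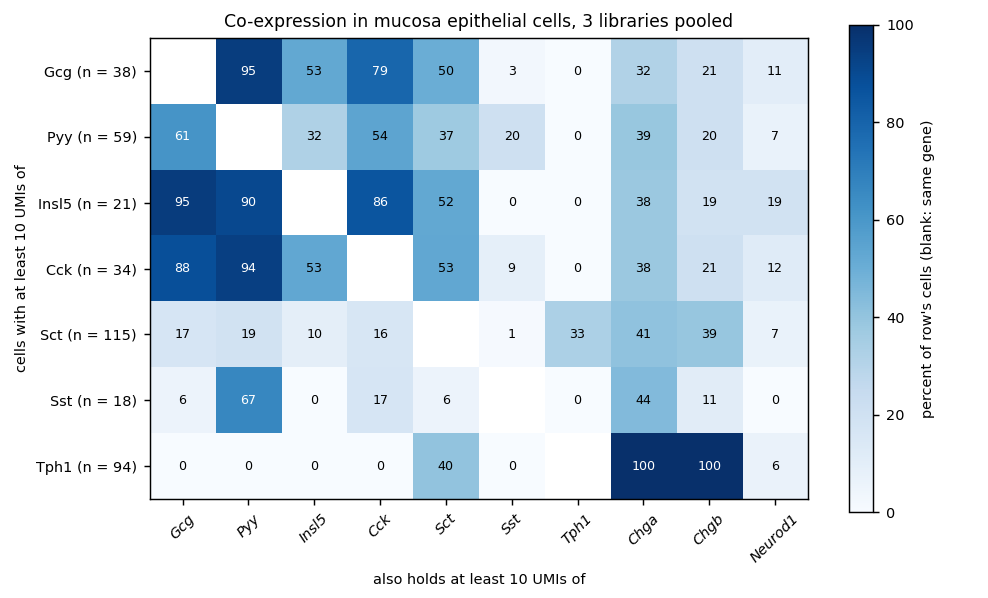
Each row takes the mucosa epithelial cells with at least 10 UMIs of 1 hormone gene (n beside it, 3 libraries pooled), and each square gives the percent of them that also hold at least 10 UMIs of the gene in the column. Gcg, Pyy, Insl5 and Cck overlap, with 95% of Gcg cells holding Pyy, while the Tph1 row is 100% for Chga and Chgb and 0% for 5 of the other hormones.

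Across the 242 mucosa enteroendocrine-like cells, Spearman's rho was 0.81 for Gcg with Insl5, 0.79 for Gcg with Pyy, 0.90 for Chga with Chgb, 0.86 for Chga with Tph1 and -0.57 for Pyy with Tph1. These are descriptions over cells of 3 libraries, which share depth and library, and carry no test. Chga was positive in 72.7%, 64.3% and 68.1% of the enteroendocrine-like cells of the 3 replicates and Tph1 in 24.2%, 32.2% and 50%. Gcg was positive in 30.3%, 15.7% and 10.6%, and Pyy in 45.5%, 23.5% and 14.9%, so the replicate with the largest share of Tph1 cells had the smallest share of L-cell hormones. Median depths of these cells were 10709, 3953 and 5264 UMIs in the same order, and the part of depth in these shares was not tested.

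Hormone transcripts were abundant in the enteroendocrine-like cells that held them. Pyy-positive ones had a median of 809, 146 and 216 Pyy UMIs in the 3 replicates and up to 3982, and Gcg-positive ones medians of 308, 184 and 353 and up to 1833. In Sst-positive ones (4, 11 and 2 cells) this transcript took a median of 7.46%, 8.52% and 11.2% of the cell's UMIs. Neurod1 reached 26 UMIs at most.

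Transcripts similar in pattern to the 10 genes were sought over 38 clusters of mucosa cells. The highest Pearson correlations with the summed 10 genes were those of Slc18a1, the vesicular monoamine transporter of enterochromaffin cells (r = 0.89), Rimbp2, an active-zone protein (0.88), Disp2 (0.86), Vwa5b2 (0.86) and Cxxc4 (0.86), followed by Pcsk1n, Gnao1, Gsdma, Gm10115 and Ntm. Over the 242 enteroendocrine-like cells, Gcg was most like the transcription factor gene Etv1 (r = 0.80), then Gatm (0.69) and Gdf15 (0.67), and Etv1 and Gatm were also among the top 3 for Pyy, Insl5 and Cck. Insl5 was most like Ass1 (0.71), Sst most like the islet amyloid polypeptide gene Iapp (0.78), Acot7 (0.65) and Isl1 (0.57), and Tph1 most like Slc18a1 (0.77), Krt19 (0.71) and Syt7 (0.70). Sct was most like Pcsk1n (0.57), S100a10 (0.53) and Wif1 (0.52). These correlations carry no test.

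Outside the enteroendocrine-like cells, only Sct had a sizable part of its mucosa UMIs, 38.0%, in other epithelial classes. In the goblet-like cluster led by Clca1 and Zg16 (559 mucosa cells) Sct had 212 CPM pooled, against 37.5 CPM over all 3458 goblet-like mucosa cells, and in tuft-like cells 130 CPM in mucosa (218 cells) and 214 CPM in tumors (54 cells). A Sct UMI was found in 51.8% of mucosa tuft-like cells (median depth 8769 UMIs), against 0.450% of mucosa T cell-like cells (median 1828). Of the 11 Sct-positive tumor cells 7 were Paneth-like and 3 tuft-like, and none was enteroendocrine-like.

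**Figure D4:**
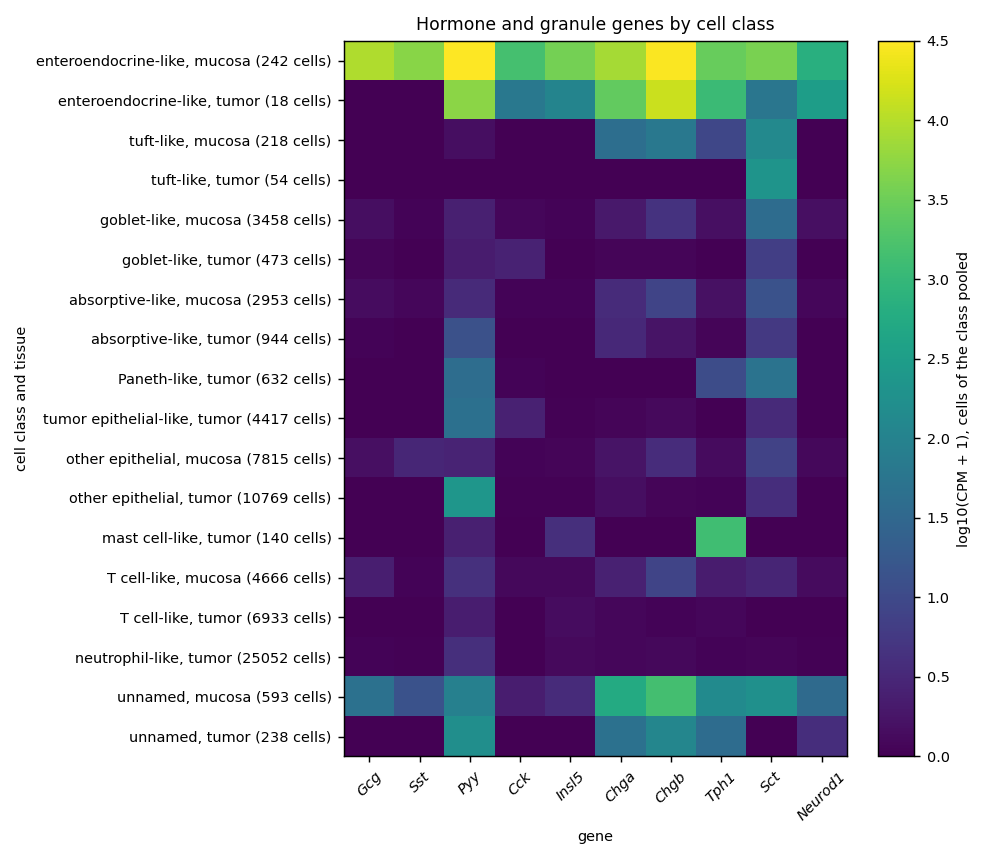
Rows are cell classes split by tissue, with the number of cells, and the color gives log10 of CPM plus 1, with the cells of a class pooled. Enteroendocrine-like mucosa cells hold all 10 genes, the 18 enteroendocrine-like tumor cells lack Gcg and Sst, tumor mast cell-like cells hold Tph1, and other tumor epithelial cells hold Pyy.

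The 18 enteroendocrine-like tumor cells, 1 to 4 in each tumor, were counted one by one. Of these, 2 cells of tumor 4 had UMIs of fewer than 3 of the 16 enteroendocrine markers and none of the 10 genes, so their place in the class rests on the clustering alone. At least 10 UMIs of Chgb were found in 14, of Chga in 13 and of Tph1 in 8. Gcg and Sst had no UMI in any of them, which with 18 cells allows a share of positive cells up to 18.5% (exact 95% interval) beside 15.7% and 7.02% in the 242 mucosa cells, so no difference was detectable at this number of cells. Cck and Sct were positive in none of the 18 either, with at most 7 UMIs in a cell, beside 14.0% and 26.9% of the mucosa cells. The barcodes removed as doublets held 118 Cck and 27 Sct UMIs in tumor 5 and 77 Cck UMIs in tumor 7, so with them kept neither gene was at 0. Cells are not replicates of a tissue, and these shares carry no test. Pyy was positive in 3 cells of tumors 8, 9 and 10, with 807, 170 and 137 UMIs, and none of these 3 held a Tph1 UMI. The Pyy cell of tumor 9 also held 22 Insl5 UMIs. There were 11 cells with both Chgb and Tph1 UMIs, and 3 cells, those 2 among them, held no UMI of any of the 10 genes.

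Pyy in tumors came mostly from other cells. Of the 44021 Pyy UMIs of the tumors, 96.3% were in epithelial cells outside the enteroendocrine-like class and 2.54% in it, against 0.826% and 98.9% in mucosa. The enteroendocrine-like barcodes removed as doublets from tumors 5 and 7 held a further 10775 Pyy UMIs, 17.0% of the 63271 before doublet removal, so the enteroendocrine-like part is larger when they are kept. Outside the class, Pyy had 0.569, 2.82 and 1.75 CPM in mucosa replicates 1, 2 and 3 and 0.265 (tumor 6) to 732 CPM (tumor 2) in tumors, with a median of 89.2. The other 8 tumors lay between 6.55 and 168 CPM, and 9 of the 10 were above every mucosa library. With the enteroendocrine-like cells left out, an alternative added after the data were seen, Pyy rose by 6.17 ± 1.76 on the log2 scale (SE; edgeR adjusted p = 0.00725), where 64.5% of 15400 genes were called, 34.2% higher and 30.3% lower. With the mouse as a block it was 5.47 (edgeR adjusted p = 0.0152), and without tumor 2 it was 5.29 (edgeR adjusted p = 0.00471).

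A Pyy UMI was found in 0.0624% to 16.9% of these tumor cells, with median depths of 8047 to 13825 UMIs. In neutrophil-like cells of the same tumors, which should lack the gene and had median depths of 2337 to 3118 UMIs, the share was 0.0564% to 0.703%. Tumor 6 alone was at the level of its neutrophil-like cells. There were 402 such cells with at least 10 Pyy UMIs, in 9 tumors, and the deepest held 2351. Of these 402, only 4 had a Chga UMI, 2 a Chgb UMI, 1 an Insl5 UMI and none a Gcg or Neurod1 UMI, and none had UMIs of 3 or more of the 16 enteroendocrine markers.

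Tumor 2 held 53.4% of the Pyy UMIs in these cells. By cluster, the mean over the 10 tumors was 389 ± 363 CPM (SD) in a cluster led by Lix1 and Spp1 (1069 cells), 485 ± 850 CPM in one led by Cxcl9 and Cxcl5 (2842 cells) and 257 ± 299 CPM in one led by Jchain and Lars2 (2014 cells), so no order among them stands beyond the spread between tumors. In the tumor epithelial-like clusters Pyy had a mean of 65.1 ± 77.1 CPM (SD, n = 10). Cck also had a second source, with 132 of the 181 tumor Cck UMIs in the tumor epithelial-like cluster led by Wnt6, where the 4 Cck-positive tumor cells lay, 3 of them in tumor 1. Without enteroendocrine-like cells the Cck difference was 1.91 and not called (edgeR adjusted p = 0.216).

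**Figure D5:**
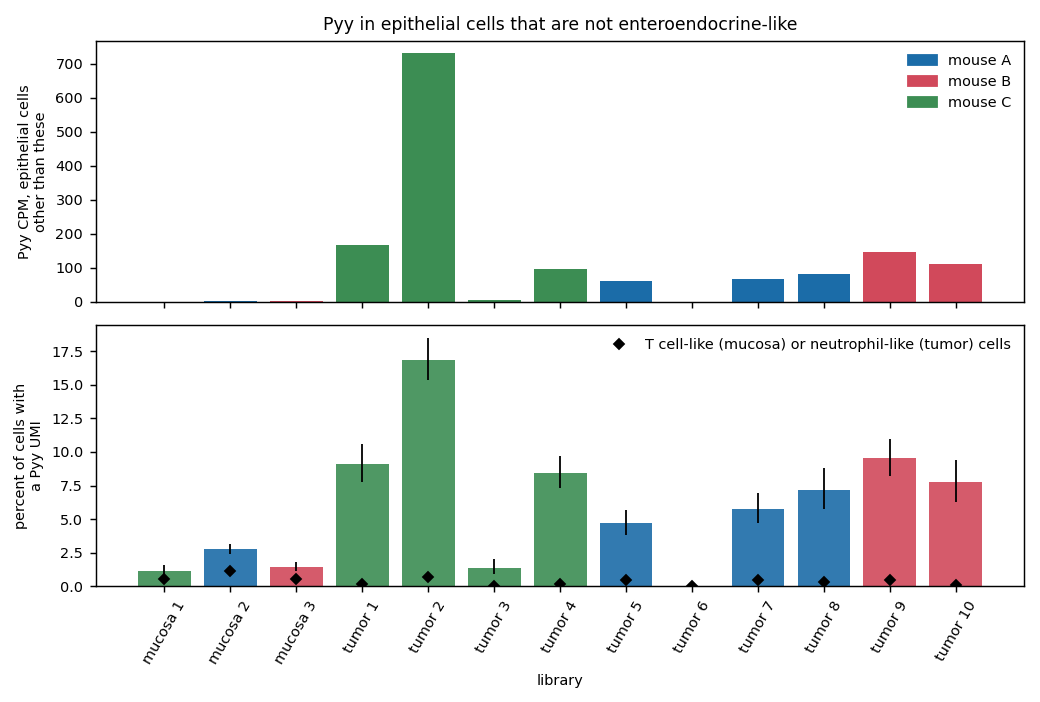
Top, Pyy UMIs per 1000000 UMIs of epithelial cells other than enteroendocrine-like cells, by library and colored by mouse. Bottom, the percent of these cells with a Pyy UMI (bars, exact 95% intervals of counting error) beside T cell-like cells of mucosa or neutrophil-like cells of tumors (diamonds). Tumor 2 reaches 732 CPM and 16.9% of cells, and tumor 6 is at 0.265 CPM.

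The remaining genes behaved differently once enteroendocrine-like cells were left out. Chgb, which entered this test through the mucosa, had a fitted difference of -4.43 and groups that overlapped, with 0.218, 8.72 and 3.00 CPM in mucosa replicates 1, 2 and 3 against 0.0436 to 0.510 in tumors. Mucosa T cell-like cells, which should lack Chgb, had 7.38 CPM pooled, and the part of free RNA in these levels was not tested. In this setting Sct fell by 2.0 (edgeR adjusted p = 0.00051). Chga was called lower with overlapping groups (-1.93, edgeR adjusted p = 0.0208), a call lost with the mouse as a block (-1.38, edgeR adjusted p = 0.0672). Tph1 had a difference of -0.38 (edgeR adjusted p = 0.732), and Gcg, Sst, Insl5 and Neurod1 had too few counts to be tested.

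Tph1 had a second source in tumors. Of the 1318 Tph1 UMIs of tumors 66.4% were in mast cell-like cells and 18.8% in enteroendocrine-like cells, against 1.95% and 92.7% in mucosa. The mast cell-like share ran from 0 in tumor 10 to 91.1% in tumor 4. A Tph1 UMI was found in 32.9% of the 140 tumor mast cell-like cells (median depth 2902 UMIs), against 0.0359% of tumor neutrophil-like cells (median 2672), and 1 cell of tumor 3 held 194. Mast cells of the mouse are known to make serotonin. The summed level of 12 mast markers was 29.9 to 142 CPM in mucosa and 192 to 759 CPM in tumors, with none of the markers at 0 in either group. By gene, 3 of the 12 were called higher and 1 lower, beside 36.3% and 34.0% of all genes in these sums. The other 8 were not called, and the median log2 fold change of the 12 was 2.38, against 0.03 over all genes. The sum includes Hdc, which was also a leading gene of a neutrophil-like cluster. The part of mast cell-like cells in the all-cell Tph1 difference was not tested.

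Other cell types moved between the tissues as well. The summed level of 10 goblet markers was 17365 to 34109 CPM in mucosa and 1106 to 5965 CPM in tumors, with none at 0. Of these 10 genes, 8 were below mucosa in every tumor, against 26.3% of all genes. The 10 tuft markers summed to 27.9 to 118 CPM in mucosa and 399 to 742 CPM in tumors, although 6 of the 9 tuft genes tested in the all-cell sums were called lower and 3 higher (median log2 fold change -2.11). The 10 markers of enteric neurons and glia, which also use granule genes, summed to 1.44 to 1.77 CPM in mucosa and 2.90 to 5.38 CPM in tumors, with Sox10 at 0 in mucosa. The 16 enteroendocrine markers outside the chosen genes summed to 38.7 to 41.4 CPM in mucosa and 9.01 to 28.2 CPM in tumors. Of the 16, 14 were below mucosa in every tumor, against 26.3% of all genes. In the all-cell sums 13 were called lower, 6 of them genes that entered through the mucosa, and 2 higher. Those 2, Cplx2 and Isl1, are part of the summed level. The part of these cell types in the hormone differences was not tested.

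Lists of related genes were counted in the epithelial sums beside the 33.9% of all genes called higher and 30.2% called lower by edgeR, with a median log2 fold change of 0.04 over all genes. As with the hormones, a gene that passed the filter only through the tissue where it is high had to differ, so its fitted difference is a description and its call is no support. Of 18 tested genes of granule formation and prohormone processing, 13 were called lower and 2 higher, with a median log2 fold change of -2.20, and 6 of the 13 entered through the mucosa alone. Scgn (a calcium sensor of secretion, -4.39), Syt13 (a synaptotagmin, -4.38) and Scg3 (secretogranin III, -4.29) had the largest fitted differences and were among these 6. Cplx2, a complexin that regulates vesicle fusion, rose from 3.59 ± 0.528 (SD, n = 3) to 10.4 ± 2.34 CPM (SD, n = 10), and Pam, which amidates peptide hormones, was called higher (0.80, edgeR adjusted p = 0.0306), a call lost without mucosa replicate 1 (0.47) or 3 (0.90) and without the libraries of mismatched sex label (0.37).

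Of 8 serotonin pathway genes 5 were called lower and 1 higher, with a median of -1.58. The serotonin reuptake transporter Slc6a4 fell by 2.37, while Fev (-4.47) and Lmx1a (-3.29) entered through the mucosa. Slc18a1, which loads serotonin into granules and was most like Tph1 in mucosa, rose from 2.40 ± 0.599 to 13.4 ± 6.83 epithelial CPM (log2 fold change 2.21 ± 0.52, SE, edgeR adjusted p = 0.0021), and by 3.68 without the enteroendocrine-like cells.

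Of 14 enteroendocrine transcription factor genes 7 were called lower and 4 higher, with a median of -1.51, and 6 of the 7 entered through the mucosa. Among these 6 were Etv1 (-5.01), Neurog3, which starts the lineage (-4.17), and Pax4 (-4.00). Isl1, an enteroendocrine factor that was like Sst in mucosa, rose by 3.12 in the epithelial sums (edgeR adjusted p = 0.0023). Sox4 (2.15) and Hhex (1.57) also rose, and without the libraries of mismatched sex label Isl1, Hhex and Slc6a4 stood at 2.94, 1.29 and -2.18 and were not called (edgeR adjusted p = 0.178, 0.0530 and 0.0572). That setting has 1 mucosa library and 5 tumors, so a call lost at a similar fold says nothing of the sex label.

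Of 6 tested nutrient sensor genes 5 were called lower and none higher, with a median of -1.99. Ffar2, a receptor for short-chain fatty acids, fell from 45.8 ± 18.2 to 2.62 ± 1.44 CPM (-4.38 ± 0.37, SE, edgeR adjusted p = 7.9e-07), while Abcc8, the sulfonylurea receptor subunit (-3.59), and Ffar3 (-2.47, and -1.44 without mucosa replicate 1) entered through the mucosa.

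Of 7 other gut hormone genes 2 were called higher and 1 lower, with a median of -0.26. Ghrl, the ghrelin gene, entered through the mucosa, with a fitted difference of -5.18 (-4.32 without mucosa replicate 3). Nmb, which encodes neuromedin B, rose by 1.44, and Adm, which encodes adrenomedullin, was called higher (0.95, edgeR adjusted p = 0.0340), a call lost without any 1 of the mucosa replicates (0.87 to 1.07) and without the libraries of mismatched sex label (0.16).

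Of 8 tested receptors for these hormones 4 were called lower and 2 higher, with a median of -1.04, and both of the higher genes entered through the tumors. Npy2r, a receptor for PYY, had 0.0727 ± 0.0257 CPM in mucosa (SD, n = 3) and 1.05 ± 0.815 CPM in tumors (SD, n = 10). Npy4r, a receptor of the same family, was at 0 in all 3 mucosa libraries and had 0.604 ± 0.258 CPM in tumors (SD, n = 10), so its fitted fold is no bound. The somatostatin receptor Sstr1 entered through the mucosa, with a fitted difference of -4.17. The serotonin receptor gene Htr4 fell by 2.10 (-1.74 and not called without the libraries of mismatched sex label, edgeR adjusted p = 0.0732), and Dpp4, whose protease inactivates GLP-1, fell by 1.75.

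Of 14 tested enteroendocrine markers outside the chosen genes 11 were called lower, 6 of them genes that entered through the mucosa, and 2 higher (median -2.58). Of 5 tested neuron and glia genes 4 were called higher, 3 of which entered through the tumors (median 2.01). Among the markers of neighboring cell types, 9 of 10 goblet genes fell in the epithelium, with Atoh1, a secretory lineage factor, at -3.78, Muc2 at -3.70 and Agr2 at -3.65, and 6 of 9 tuft genes were called lower. Of these Gnat3 (-4.29) and Pou2f3 (-2.78) entered through the mucosa, and Ltc4s fell by 3.0, a call lost without mucosa replicate 1 (-1.88). Avil rose by 3.03, and by 3.95 without mucosa replicate 1. Of the 12 mast genes in the all-cell sums, those called were Hdc at 8.18, Ms4a2 at 3.37 (through the tumors, and 5.05 without mucosa replicate 1), Gata2 at 2.28 and Kit at -1.55 (-0.85 without mucosa replicate 1).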

How the data were processed

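The 13 libraries were made with the Chromium 3v3.1 kit and, per the labels, were aligned to mm10 with Cell Ranger 6.0.0 (the study's methods name another version). The authors deposited raw UMI counts per gene and barcode, with no normalization, one matrix per library. The replicates of a group are separate tissue pieces, and tumors of 1 mouse share that animal.

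Barcodes needed 500 UMIs, 200 genes and under 25% mitochondrial UMIs. Doublets, ranked by their share of simulated doublets among neighbors, were removed at 0.8% per 1000 barcodes of a library. That score used 1500 variable genes of the library, from which the 10 genes were not held out. Cells were clustered by the Leiden method at resolution 1 (seed 11, 2000 variable genes, 30 components, 20 neighbors) without the 10 genes, once for all cells and once for epithelial cells. Classes were named from fixed marker lists and end in -like, since the authors' annotation was not used here. A cluster of 593 mucosa and 238 tumor cells with low depth (median 698 and 1089 UMIs) stayed unnamed and outside the epithelial sums. Each of the 13 count matrices held 1 sample, with 0 columns of other samples.

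UMIs were summed per library over all retained or all epithelial cells and tested with edgeR 4.0.16 (quasi-likelihood, TMM, filterByExpr, Benjamini-Hochberg over all genes). CPM are UMIs per 1000000. Epithelial sums held 60.1 to 79.5 in mucosa and 21.7 to 39.0 in tumors, in units of 1000000 UMIs. Intervals and floors (3 counts) cover counting error only. The test scripts were tested on simulated data. DESeq2 1.42.0, other filters, scalings and limits, each library left out and the mouse as a block were alternatives.

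Mucosa and tumors of 1 mouse pair by the animal code in the titles. Deviations from the group means correlated within mice A, B and C with r = 0.124, 0.0282 and 0.0961 across 17437 genes, which are not independent replicates. Between mice r ran from -0.129 to 0.0255. The highest was that of mouse B tumors with mouse A mucosa, close to the value within mouse B.

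The 10 genes, the lists and the tests were chosen with earlier results of these data known. From each list the text names up to 3 genes per direction with the largest log2 fold change among those called in the epithelial sums (all-cell sums for mast genes), all 10 chosen genes, the 10 genes most like their sum over mucosa clusters and the 3 most like each hormone gene over mucosa enteroendocrine-like cells, among genes with a UMI in at least 10% of these. Gene coordinates are from GENCODE vM21. Cluster leaders and the marker examples were named after their values were seen.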

Additional observations from a re-analysis of the deposited data

Results flagged for a closer look

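Single libraries stood apart from the other tumors in 11 of 21 sets of 10 tumor values examined for a lone extreme. The limit used gives about 1 in 20 only for independent sets of normal values. Several sets here were skewed or mostly at 0, and the sets of a gene share cells, so the count of 11 is a description. Tumor 2 was the extreme for Pyy, with 332 CPM over all cells and 731 CPM over epithelial cells. Tumor 5 was the extreme for Gcg, with 0.212 CPM over all cells and 0.133 CPM over epithelial cells, the latter from 4 UMIs. Tumor 6 was the only tumor with Sst, at 0.0791 CPM, from 1 cell, and stood apart for Neurod1 with 1.15 epithelial CPM. Tumor 1 stood apart for Cck with 1.42 CPM over all cells and 3.76 over epithelial cells. Tumor 9 stood apart for Insl5 with 0.749 and 1.00 CPM, and tumor 10 for Chgb with 17.2 CPM over all cells.

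Epithelial Pyy differed in direction between mice. Both tumors of mouse B, with a mean of 136 CPM, were above their mucosa, and all 4 tumors of mouse A were below theirs. This difference between mice was not tested.

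Signal was also found in cells outside the comparisons. The shallow unnamed cluster held 445 Chga and 1128 Chgb UMIs in mucosa. The pair of enteroendocrine-like tumor barcodes removed as doublets held 727 Gcg, 1272 Insl5 and 10775 Pyy UMIs.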

How the results depend on the processing

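Of 1491 recomputed values 1436 stayed the same by the rule for their kind, 36 no longer passed the threshold, 3 newly passed it and 5 changed sign. The other 11 moved by more than the spread between replicates or 1.5 times. Fold changes and the enteroendocrine-like share were judged by direction and threshold alone, and not by size. The shifts of Gcg and Insl5 with doublets kept, given above, are therefore not among the 11. The number of the 10 genes called lower was 9 in both sums and stayed within 9 to 10 under the alternatives for all cells and within 8 to 9 for epithelial cells, with 8 when doublets were kept (Insl5 lost), apart from 3 without enteroendocrine-like cells, 2 with the mouse as a replicate block as well, and 3 without tumor 2 as well. Of the 9, 3 in all cells and 4 in epithelial cells entered the test through the mucosa, so these counts say nothing of their stability. With the mouse as a replicate block and all cells kept, 9 genes were again called in either sum, the Pyy differences were -1.99 and -1.17, and no other call of the 10 genes changed. Epithelial Pyy was -1.62 without tumor 2. The changes of sign were those of Pyy without enteroendocrine-like cells (6.17, 5.47 with the block, 5.29 without tumor 2) and of Cck (1.91, and 0.65 with the block). Those alternatives, and the one without libraries of mismatched sex label, were chosen after seeing the data.

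The difference in enteroendocrine-like share ran from -1.60 to -1.38 points when single libraries were left out. Without mucosa replicate 1 or 2 and its mouse, the exact permutation p was 0.0667, the smallest that 15 assignments allow. Keeping doublets lowered the Tph1 level of tumor mast cell-like cells, where only tumor 4 had enough cells, to 949 CPM. The 18 enteroendocrine-like tumor cells limit every statement on their hormone content, and 3 mucosa libraries limit all comparisons. Values over all deposited barcodes and over cells differ mainly in what the doublet score removed, which was not checked against a second caller.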

Other observations

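Several tumor cells of other classes held a group of these transcripts. A neutrophil-like cell of tumor 9 with 7524 UMIs held 131 Pyy, 18 Insl5, 6 Chga and 6 Chgb UMIs. An immune cell of tumor 8 with 27947 UMIs, in a cluster led by Cst3 and Ccl17, held 14 Neurod1 and 9 Chga UMIs. A macrophage-like cell of tumor 5 with 10446 UMIs held 20 Pyy, 4 Insl5 and 2 Gcg UMIs.

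Among tumor barcodes removed as doublets, 4 of tumors 7 and 8 held at least 35 UMIs of both Chgb and Tph1. The richest in Chgb held 395 Chgb, 145 Chga and 74 Tph1 UMIs in tumor 7, and 536, 117 and 99 in tumor 8. They had UMIs of 8 and 7 of the 8 epithelial markers and of 8 and 6 of the 8 immune markers.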
